A study of Mus musculus with 6 samples.

Results

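A set of 10 genes that activate, carry or take up long-chain fatty acids were followed in transferred mouse lung fibroblasts. They were chosen by gene symbol and are the acyl-CoA synthetases Acsl1, Acsl3, Acsl4 and Acsl5, the fatty acid binding proteins Fabp3, Fabp4 and Fabp5, the fatty acid transport proteins Slc27a1 and Slc27a4, and the scavenger receptor Cd36. All 10 had a row among the 19865 gene symbols of the count tables. Primary fibroblasts came from lungs of Col1a2-GFP transgenic mice of the strain C57BL/6, in which the Col1a2 promoter drives the green reporter. Retrovirus gave them either trSrebf1, an active form of Srebf1c under doxycycline control, or a control vector, and the vector marker was hLNGFR. Recipients were C57BL/6 mice whose lungs had been injured with bleomycin at 2 mg/kg. Cells entered the airways on day 5, doxycycline followed on day 7 and donor cells were sorted on day 10, and 1 protocol text covers both groups, so the doxycycline is not recorded for trSrebf1 cells alone. The sort kept live cells positive for the reporter and for hLNGFR and negative for CD45, CD31, EpCAM, CD146 and Ter119. It thus selected for cells with signal of the Col1a2 reporter. Each group had 3 libraries of 3'SAGE-seq, which counts short tags near the 3' ends of polyA transcripts. The sources used here give neither age nor sex of the mice, and do not say whether replicates came from separate mice or cultures, so p-values reflect only how far these libraries differ, which may be technical. The comparison asks which genes of fatty acid handling differ when active Srebf1 is switched on in fibroblasts of an injured lung.

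Fatty acids enter cells across the plasma membrane, helped by proteins such as CD36 and the SLC27 family, and move through the cytosol bound to small carrier proteins of the FABP family. Before use they are joined to coenzyme A by acyl-CoA synthetases, and the acyl-CoA can then be built into phospholipids and triglycerides, lengthened, desaturated or oxidised. SREBP-1c, the product of Srebf1, is a transcription factor of fatty acid synthesis, and PPAR receptors are known regulators of several FABP, ACSL and CD36 genes. In the lung, FABP4 and CD36 are known for their expression in capillary endothelium and alveolar macrophages, and FABP4 is also a carrier of adipocytes.

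Libraries held 3675146 to 4688196 counts. Srebf1 itself, whose tags do not tell endogenous from transgene RNA, averaged 7.11 ± 1.72 CPM (SD, n = 3) in control libraries against 28.2 ± 3.30 CPM (SD, n = 3) with trSrebf1. The transgene is a truncated form, so these 3' tags may come from the endogenous gene. CPM are counts after all libraries are brought to 1 size. The log2 fold change of Srebf1 was 1.98 (SE 0.23, adjusted p = 2.88e-06), and 109 bases of its 3' end match Rai1. Fold changes are for trSrebf1 over control, and adjusted p-values are from edgeR's quasi-likelihood test with Benjamini-Hochberg adjustment over 10194 tested genes. A gene was called where the adjusted p was under 0.05. The fibroblast markers Col1a1 and Col1a2 stood at 7453 ± 707 and 9633 ± 849 CPM in control libraries. With trSrebf1 they stood at 8123 ± 893 and 6979 ± 602 CPM, and Col1a2 was called lower (log2 fold change -0.47, SE 0.10, adjusted p = 0.00157). Markers of leukocytes (Ptprc) and adipocytes (Adipoq) had no row. The macrophage marker C1qa averaged 20.9 ± 19.3 CPM in control and 8.22 ± 7.34 CPM in trSrebf1 libraries.

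Of the 10 genes, Acsl3, Acsl5, Fabp3 and Fabp5 were higher in trSrebf1 fibroblasts. Acsl4, Slc27a1 and Slc27a4 did not pass the threshold. Acsl1, Fabp4 and Cd36 had too few tags to be tested. Of the tested genes 30.2% were called, 17.2% of the tested genes being higher and 13.0% lower. The split depended on scaling, 56.9% of calls being higher here, 50.3% after scaling by total counts and 48.5% after scaling by upper quartiles. Fabp3 and Fabp5 passed the filter on low counts (2.41 CPM, unscaled, in 3 libraries) only through their trSrebf1 libraries, so the 4 calls among the 7 tested genes are not set against that share. None of the 7 was called lower by edgeR, and 0 were lower at an unadjusted p under 0.05, with 0 by DESeq2 and 0 by limma-voom. Control and trSrebf1 values did not overlap for these 4. The same held for 43.4% of the tested genes, 23.1% with trSrebf1 higher and 20.2% with trSrebf1 lower. In bulk libraries such as these, fewer cells that express a gene and less RNA per cell cannot be told apart.

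**Figure D1:**
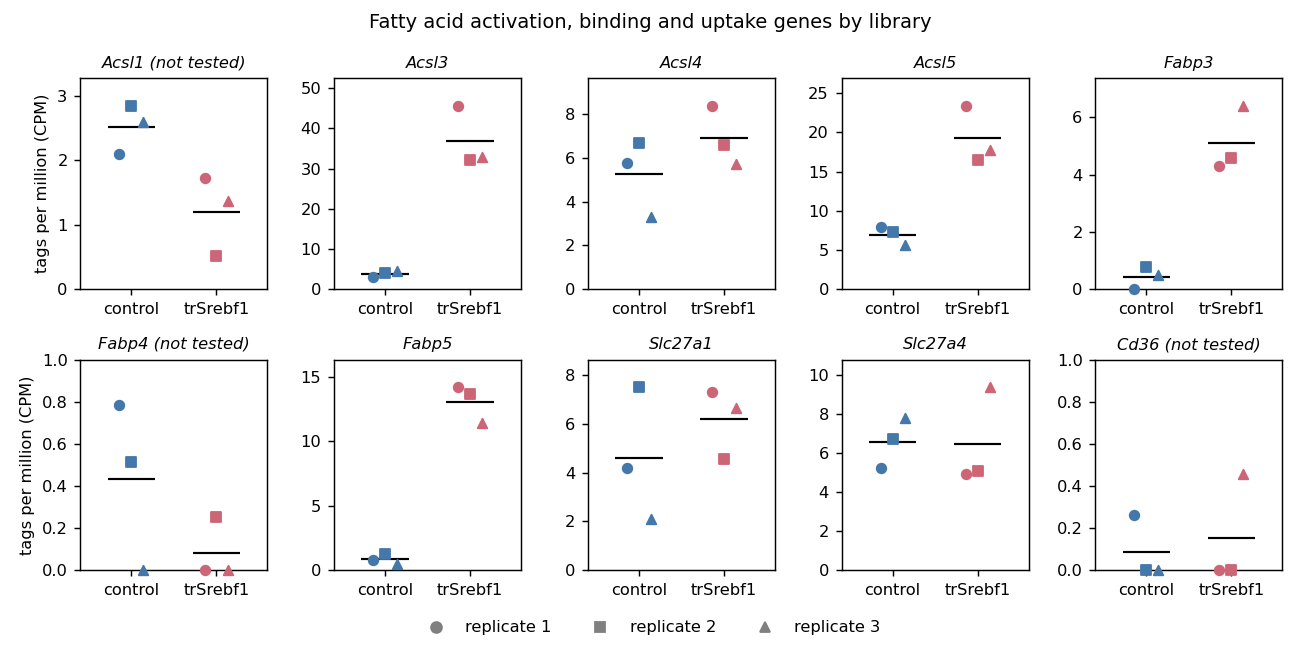
Scaled counts (CPM, y axis from 0, a scale of its own in each panel) of the 10 genes in 3 control and 3 trSrebf1 libraries. Points are libraries, their shape gives the replicate number and the bar is the group mean. Control points lie fully below trSrebf1 points for Acsl3, Acsl5, Fabp3 and Fabp5 and fully above them for Acsl1, whereas the groups overlap for Acsl4, Slc27a1, Slc27a4, Fabp4 and Cd36.

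Long-chain acyl-CoA synthetases catalyse the activation step, and 2 of the 4 members, Acsl3 and Acsl5, rose. Acsl3 (chromosome 1, 78657825 to 78707743, plus strand, GRCm38), an enzyme of the endoplasmic reticulum and of lipid droplets, was counted 11, 15 and 19 times in the control libraries and 212, 127 and 144 times in the trSrebf1 libraries. In CPM these are 2.88, 3.87 and 4.48 against 45.6, 32.2 and 32.9. Every trSrebf1 library was far above every control library. The mean rose 9.85-fold (log2 fold change 3.29, SE 0.25, adjusted p = 1.65e-08), and this log2 value exceeds that of 98.5% of the tested genes.

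Acsl3 shares 244 exonic bases on the same strand with Utp14b, a gene that starts 213 bases downstream of the start of Acsl3. The shared bases end 36813 bases before the 3' end of Acsl3, and no other annotated transcript matched the last 300 bases of an Acsl3 transcript. Utp14b was counted 2, 14 and 2 times in control and 56, 69 and 68 times in trSrebf1 libraries, so counts under both symbols were higher. Utp14b lies wholly within Acsl3 on the same strand, and how tags were assigned is not given. Whether Acsl3 RNA was counted as Utp14b was not tested. The log2 fold change of Utp14b was 3.28 (SE 0.48, adjusted p = 8.17e-05), and 4.83 without control replicate 2, the control library with the most Utp14b tags.

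Acsl5 (chromosome 19, 55251938 to 55297720, plus strand), a synthetase found on mitochondria and the endoplasmic reticulum, was counted 30, 28 and 24 times in control and 109, 65 and 78 times in trSrebf1 libraries. The values were 7.87, 7.22 and 5.66 CPM against 23.4, 16.5 and 17.8 CPM. The lowest trSrebf1 library was above the highest control library, and the mean rose 2.78-fold (log2 fold change 1.48, SE 0.25, adjusted p = 1.58e-04). Zdhhc6, on the opposite strand, shares 404 exonic bases with Acsl5, the nearest of them 642 bases from the 3' end of Acsl5, and did not pass the threshold (log2 fold change 0.18, SE 0.22, adjusted p = 0.601).

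Acsl4 (chromosome X, 142317993 to 142390535, minus strand), the synthetase that prefers arachidonic acid, had values of 5.77, 6.71 and 3.30 CPM in control and 8.39, 6.60 and 5.71 CPM in trSrebf1 libraries. The groups overlapped. The log2 fold change was 0.40 with a 95% interval of -0.29 to 1.10 (adjusted p = 0.403). The estimate for Acsl5 (1.48) lies outside this interval, but the 95% interval of Acsl5 (0.96 to 2.00) overlaps it.

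Acsl1 (chromosome 8, 46471037 to 46536051, plus strand), a synthetase known from fat, heart and liver, gave few tags and did not pass the filter. Its counts were 8, 11 and 11 in control and 8, 2 and 6 in trSrebf1 libraries, or 2.10, 2.84 and 2.59 CPM against 1.72, 0.508 and 1.37 CPM. All 3 trSrebf1 libraries lay below all 3 control libraries, as they did for 20.2% of the tested genes. The exact two-sided permutation p of the difference in mean CPM was 0.1, the smallest that 3 against 3 libraries allow. Summed counts per library total stood at a ratio of 0.468, with an exact (Clopper-Pearson) 95% interval of 0.238 to 0.885 that covers counting error only. Fits that include the spread between libraries did not call Acsl1. The adjusted p was 0.2995 by edgeR with no filter on low counts and 0.454 by DESeq2.

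The make-up of the synthetase tags was compared within each library. Acsl3 gave 17.5%, 21.7% and 33.3% of the summed tags of Acsl3, Acsl4 and Acsl5 in control libraries and 58.9%, 58.3% and 58.3% in trSrebf1 libraries. The mean share was 24.2% ± 8.21 and 58.5% ± 0.353 (SD, n = 3 each). Acsl4 took 32.4% ± 6.92 in control and 11.0% ± 0.909 in trSrebf1 libraries, and Acsl5 took 43.4% ± 3.70 and 30.6% ± 0.914. None of the 3 shares overlapped between groups, and each exact two-sided permutation test gave p = 0.1, also when adjusted over the 3 shares, which is the smallest value possible. The shares of a library sum to a fixed total, so they are not independent of each other. They come from the same counts as the fold changes above and add no separate support. The lower shares of Acsl4 and Acsl5 are no falls in level, since Acsl5 was called higher and Acsl4 was not called. With Acsl1 counted in the sum, an alternative added after the data were seen, the difference for Acsl5 was -7.52 percentage points in place of -12.9. A sum that also takes in Acsl6, another ACSL gene, was likewise added afterwards. In it Acsl3 held 11.6% ± 1.6 of the tags in control and 22.9% ± 2.02 in trSrebf1 libraries, a difference of 11.3 points in place of 34.3. Acsl4 held 16.7% ± 6.03 and 4.27% ± 0.205 and Acsl5 held 21.9% ± 5.30 and 12.0% ± 1.23. Acsl6 gave the most tags in both groups, 41.9% ± 9.47 and 60.1% ± 3.64.

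**Figure D2:**
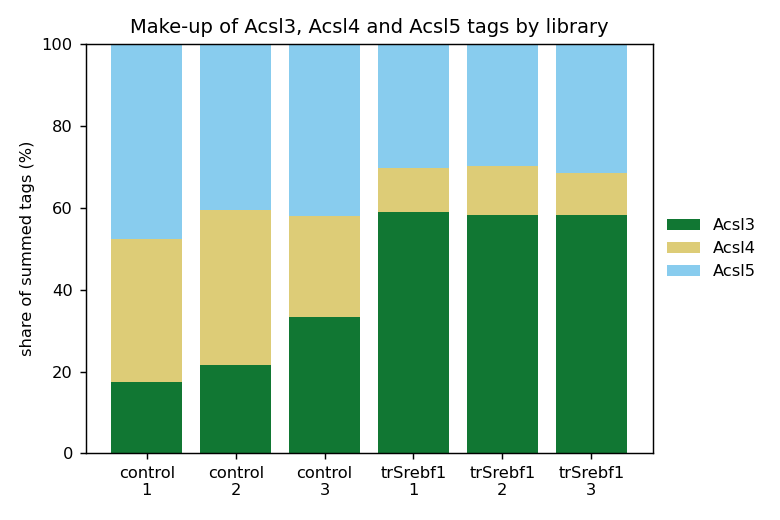
Share (%, y axis) of Acsl3, Acsl4 and Acsl5 in the summed tags of these 3 genes, 1 bar for each library. Acsl3 makes up 17.5% to 33.3% of a control bar and 58.3% to 58.9% of a trSrebf1 bar, and tags of Acsl1 and Acsl6 are not in the sum.

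Promoters were read because Acsl3, Acsl5 and Fabp3 rose with active Srebf1 and SREBP-1 is known to bind sterol regulatory elements and E-boxes beside the factors NF-Y and SP1. RefSeq entries on GRCm38.p6 were matched for 8 of the 10 genes, with 11 windows of 300 bases, from 250 bases before to 50 after a start. Fabp4 and Fabp5 were not matched. Searched on both strands were a sterol-element-like motif (TCACNCCAC), the palindromic E-box CACGTG, the NF-Y box CCAAT, the GC box GGGCGG bound by SP1 and the direct-repeat element DR1 of PPAR receptors. The 250 bases before the start are given for Acsl3 and Acsl5, which rose, for Acsl4, which did not pass, for the second start of Acsl1, where the only sterol-element-like match lies, and for Fabp3. Capitals mark motif matches.
Acsl3, chr1:78657575-78657824, plus strand: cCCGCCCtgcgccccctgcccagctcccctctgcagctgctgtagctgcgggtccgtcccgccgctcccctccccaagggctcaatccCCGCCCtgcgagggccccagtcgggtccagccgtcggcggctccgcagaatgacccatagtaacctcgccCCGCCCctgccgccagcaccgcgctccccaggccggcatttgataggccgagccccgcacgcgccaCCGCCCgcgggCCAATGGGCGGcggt
Acsl5, chr19:55253119-55253368, plus strand: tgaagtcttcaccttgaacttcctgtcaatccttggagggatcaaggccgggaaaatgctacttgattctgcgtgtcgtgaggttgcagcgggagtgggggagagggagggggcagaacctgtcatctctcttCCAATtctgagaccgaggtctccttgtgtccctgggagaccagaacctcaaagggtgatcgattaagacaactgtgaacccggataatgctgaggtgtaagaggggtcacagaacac
Acsl4, chrX:142390536-142390785, minus strand: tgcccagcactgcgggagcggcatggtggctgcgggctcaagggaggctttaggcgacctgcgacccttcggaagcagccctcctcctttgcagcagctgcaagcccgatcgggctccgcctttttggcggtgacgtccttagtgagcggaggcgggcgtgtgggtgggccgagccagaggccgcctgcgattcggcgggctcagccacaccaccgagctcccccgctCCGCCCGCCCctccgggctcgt
Acsl1 second start, chr8:46490716-46490965, plus strand: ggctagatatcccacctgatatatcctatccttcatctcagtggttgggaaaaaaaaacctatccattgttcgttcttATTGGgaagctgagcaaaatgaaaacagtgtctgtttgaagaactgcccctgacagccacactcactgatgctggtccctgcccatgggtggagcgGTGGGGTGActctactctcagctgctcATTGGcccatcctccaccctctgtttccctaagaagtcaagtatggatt
Fabp3, chr4:130308488-130308737, plus strand: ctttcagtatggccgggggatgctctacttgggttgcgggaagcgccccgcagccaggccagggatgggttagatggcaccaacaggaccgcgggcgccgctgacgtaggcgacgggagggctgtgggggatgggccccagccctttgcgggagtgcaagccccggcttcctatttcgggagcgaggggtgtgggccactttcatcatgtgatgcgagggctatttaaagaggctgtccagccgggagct
In Acsl3 a CCAAT box at position -15 directly precedes a GC box at -10, counting the base before the start as -1. In Acsl4 GC boxes at -22 and -18 overlap, and Acsl5 holds a CCAAT box at -117. The Fabp3 window holds none of the 5 motifs.

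The sterol-element-like motif was in 1 of the 11 windows, that of Acsl1 at -76 (read there as GTGGGGTGA on the gene's strand), and in 1.24% of all 32851 RefSeq windows of the same length. The palindromic E-box was in 1 of 11, a window of Slc27a1, and in 7.15% of all windows. CCAAT was in 6 of 11 and in 37.4% of all, and the GC box in 7 of 11 and in 35.7% of all. Among windows of tested genes alone the GC box share was 64.1%. DR1 was in 0 of 11 and in 0.0396% of all. These are matches of letters and no measurement of binding.

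Of the 7 tested genes, the binding protein genes Fabp5 and Fabp3 had the largest log2 fold changes. Both were tested only through their trSrebf1 libraries. Their 95% intervals (3.11 to 4.73 and 2.24 to 4.78) overlap that of Acsl3 (2.76 to 3.81), so the order is uncertain. Fabp5 (chromosome 3, 10012548 to 10016607, plus strand), the epidermal-type carrier, was counted 3, 5 and 2 times in control and 66, 54 and 50 times in trSrebf1 libraries. In CPM these are 0.787, 1.29 and 0.472 against 14.2, 13.7 and 11.4. Every control library thus held 5 tags or fewer, and every trSrebf1 library 50 or more. The mean rose 15.4-fold (log2 fold change 3.92, SE 0.38, adjusted p = 4.35e-07). No other annotated transcript matched the last 300 bases of Fabp5 over 50 or more bases at 90% identity or more.

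Fabp3 (chromosome 4, 130308595 to 130315463, plus strand), the carrier known from heart and muscle, was counted 0, 3 and 2 times in control and 20, 18 and 28 times in trSrebf1 libraries, or 0, 0.774 and 0.472 CPM against 4.30, 4.57 and 6.40 CPM. The groups did not overlap, and the log2 fold change was 3.51 (SE 0.60, adjusted p = 2.06e-04). Its size rests on 5 control tags and was 4.20 without control replicate 2. The last 81 bases of Fabp3 overlap Zcchc17 on the opposite strand. The sources used here do not say how the counting treated strand, so tags from those bases cannot be told apart, and Zcchc17 had 57.5 ± 16.2 CPM in control and 63.1 ± 9.84 in trSrebf1 libraries (log2 fold change 0.14, SE 0.19, adjusted p = 0.652).

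Fabp4 (chromosome 3, 10204088 to 10208576, minus strand), the adipocyte carrier, lies 187480 bases from Fabp5 on the same chromosome. It was counted 3, 2 and 0 times in control and 0, 1 and 0 times in trSrebf1 libraries. Its ratio of summed counts per library total was 0.175, with an exact 95% counting interval of 0.00371 to 1.57, so no difference was detectable at this depth. Each trSrebf1 library held 50 or more tags of Fabp5 and 1 or fewer of Fabp4, although tag counts of different genes do not compare their levels.

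Markers of other cells that carry FABP4, FABP5 or CD36 were summed in the same libraries. Of 14 macrophage markers 10 had a row, and their sum was 8.26 to 50.3 CPM in control and 3.23 to 18.7 CPM in trSrebf1 libraries, most of it from C1qa. Without C1qa it was 0.708 to 7.34 and 0.860 to 3.30 CPM. Ptprc, Adgre1, Marco and Ear2 had no row. Endothelial markers, 9 of 11 with a row, summed to 196 to 222 CPM and 172 to 187 CPM, most of it from Ecscr. Without Ecscr they summed to 2.59 to 4.39 CPM and 10.5 to 13.3 CPM, and these sums did not overlap. Of the 3 tested endothelial markers 2 were called higher, Egfl7 (log2 fold change 3.43, adjusted p = 1.79e-05) and Esam (1.49, adjusted p = 0.0225), and neither reached the level of the filter in a control library. Kdr had 13 tags in control and 14 in trSrebf1 libraries. Pecam1, Cdh5 and Tek had 1, 1 and 2 tags in control and 0 in trSrebf1 libraries, Tie1 had 1 in each group, and Cldn5 had 0 and 2. Of 7 adipocyte markers 2 had a row, summing to at most 0.236 CPM in control and 0.645 CPM in trSrebf1 libraries, and Adipoq, Plin1, Lep, Retn and Cfd had none.

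The 11 epithelial markers, all with a row, summed to 9.96 to 16.3 CPM in control and 7.77 to 26.1 CPM in trSrebf1 libraries. Their leading genes Sftpb and Sftpc, surfactant proteins of alveolar type II cells, had log2 fold changes of 0.35 and -0.39 (adjusted p = 0.701 and 0.681). Among the untested epithelial markers, the adhesion gene Cdh1 had 0, 1 and 0 tags in control and 14, 2 and 11 in trSrebf1 libraries. Sftpa1 had 4 and 13 tags, Sftpd 2 and 10 and Scgb1a1 3 and 16, whereas Krt8 had 6 and 1, Krt18 6 and 2 and Ager 23 and 21. Red blood cell markers, 5 of 6 with a row, summed to at most 0.708 and 1.37 CPM. Pericyte and smooth muscle markers, all 9 with a row, summed to 133 to 147 and 217 to 250 CPM, most of it from Cspg4 and Des. Of the 7 tested markers 5 were called lower and 2, Cspg4 and Des, higher. Summed fibroblast markers were 28800 to 33800 CPM in control and 20400 to 23300 CPM in trSrebf1 libraries, with 6 of 8 called lower and 1 higher. Over all tested genes 13.0% were called lower and 17.2% higher. The part of other cells in the changes of Acsl3, Acsl5, Fabp3 and Fabp5 was not tested.

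Transport genes did not pass the threshold. Slc27a1 (chromosome 8, 71568882 to 71587302, plus strand), an insulin-responsive transporter with synthetase activity, had values of 4.20, 7.48 and 2.12 CPM in control and 7.31, 4.57 and 6.62 CPM in trSrebf1 libraries. The groups overlapped, with a log2 fold change of 0.44 and a 95% interval of -0.39 to 1.27 (adjusted p = 0.450). The last 300 bases of its transcripts match transcripts of 369 other genes over 50 or more bases at 90% identity or more, so its tags are uncertain.

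Slc27a4 (chromosome 2, 29802634 to 29817522, plus strand), a transporter of the endoplasmic reticulum, stood at 5.24, 6.71 and 7.78 CPM in control and 4.95, 5.08 and 9.36 CPM in trSrebf1 libraries. These values overlap, and trSrebf1 replicate 3 was the highest of the 6. The log2 fold change was -0.03 with a 95% interval of -0.72 to 0.66 (adjusted p = 0.960), and its sign turned when single libraries were left out. Cd36 (chromosome 5, 17781690 to 17888801, minus strand) was counted 1, 0 and 0 times in control and 0, 0 and 2 times in trSrebf1 libraries. That is at or under 3 counts in each group, so no fold is given.

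**Figure D3:**
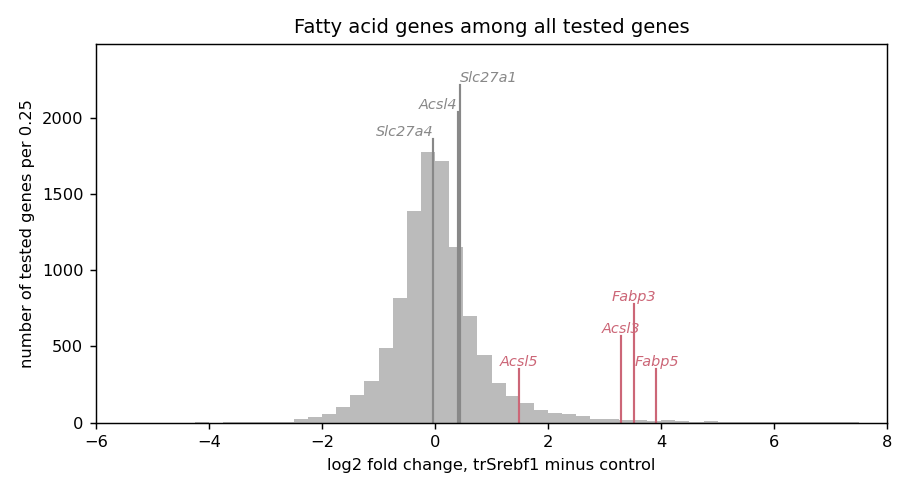
Distribution of log2 fold changes (x axis, trSrebf1 minus control) of all 10194 tested genes in bins of 0.25, with the 7 tested fatty acid genes marked by lines whose height has no meaning. Red lines passed the threshold and grey lines did not. Slc27a4, Acsl4 and Slc27a1 lie within the bulk of genes, and Acsl3, Fabp3 and Fabp5 lie in the right tail. Fabp3 and Fabp5 were tested only through their trSrebf1 libraries.

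The other genes of fatty acid activation were counted from a list of 14 symbols, of which 10 had a row and 6 were tested. Of these 4 were called, all of them higher, and the median log2 fold change was 1.75. Acss2 and Acsbg1 reached the level of the filter in no control library and were tested only through their trSrebf1 libraries, so this count and median are a description and are not set against all genes. Acss2, which activates acetate in the cytosol, was counted 5, 5 and 3 times in control and 126, 112 and 114 times in trSrebf1 libraries. Its log2 fold change was 4.60 (SE 0.30, adjusted p = 2.54e-09), and an antisense transcript, Acss2os, shares 113 bases near its 3' end. Acsl6, the remaining long-chain synthetase of the ACSL family and best known from brain, stood at 10.2, 12.4 and 17.9 CPM in control and 107, 100 and 81.5 CPM in trSrebf1 libraries. It rose by 2.83 on the log2 scale (SE 0.19, adjusted p = 5.00e-09). Of the ACSL genes, Acsl3, Acsl5 and Acsl6 were thus called higher and Acsl4 was not, while Acsl1 was not tested.

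Acsbg1, a synthetase of the bubblegum family, rose by 2.41 (SE 0.39, adjusted p = 1.25e-04) from 1.41 ± 0.432 to 7.71 ± 1.47 CPM. Acsbg2 of the same family, named after its counts were seen, had no tag in control and 9, 3 and 10 tags in trSrebf1 libraries, which is at least 6.43-fold higher against a floor of 3 counts over the control group. Aacs, which activates acetoacetate, rose by 0.68 (SE 0.16, adjusted p = 0.00383). Acsf3, a mitochondrial malonyl-CoA synthetase, was not called (log2 fold change 0.13, 95% interval -0.14 to 0.40), nor was Acsf2 (1.09, 0.18 to 1.99, adjusted p = 0.0668).

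Other uptake and lipolysis genes went in both directions. Of 17 symbols 12 had a row and 9 were tested, with 2 higher, 1 lower and a median of -0.10. Over all tested genes 17.2% were called higher and 13.0% lower. Slc27a3, a relative of Slc27a1 and Slc27a4, stood at 4.46, 2.84 and 2.59 CPM in control and 17.4, 19.8 and 21.0 CPM in trSrebf1 libraries and rose by 2.55 on the log2 scale (SE 0.28, adjusted p = 1.43e-06). It was the only one of the 3 tested SLC27 genes to pass the threshold. The lysophosphatidylcholine transporter Mfsd2a rose by 2.13 (SE 0.30, adjusted p = 3.25e-05). Cav1, the main coat protein of caveolae, fell by 1.91 (SE 0.38, adjusted p = 0.00104) from 14.6 ± 6.68 to 3.78 ± 1.36 CPM, while Ptrf, which encodes another caveolar coat protein, had a log2 fold change of 0.26 (adjusted p = 0.157). Lpl, which releases fatty acids from lipoproteins, averaged 118 CPM without and 106.5 CPM with trSrebf1 (95% interval of the log2 fold change -0.63 to 0.32).

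Among other intracellular carriers, 10 of 17 symbols had a row and 8 were tested, with 4 higher, 2 lower and a median of 0.61. The acyl-CoA binding protein Dbi rose by 1.56 (SE 0.22, adjusted p = 2.86e-05), from 6.82, 8.51 and 10.1 CPM to 28.6, 22.8 and 24.0 CPM, and its relatives Acbd4 and Acbd6 rose by 1.84 (SE 0.19) and 1.09 (SE 0.12). Scp2, the sterol carrier protein, fell by 1.03 (SE 0.12, adjusted p = 2.67e-06) from 1081 ± 162 to 530 ± 40.1 CPM. Dbi and Scp2 have near-identical annotated copies, so their values are uncertain. Crabp2, a retinoic acid carrier named after its values were seen, rose by 2.74 (SE 0.51). It was likewise tested only through its trSrebf1 libraries, so the carrier counts are not set against all genes. Fabp7, the brain-type carrier, had 0 tags in control and 5, 2 and 2 tags in trSrebf1 libraries, and Fabp1, Fabp2, Fabp6, Fabp9, Fabp12 and Pmp2 had no row.

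**Figure D4:**
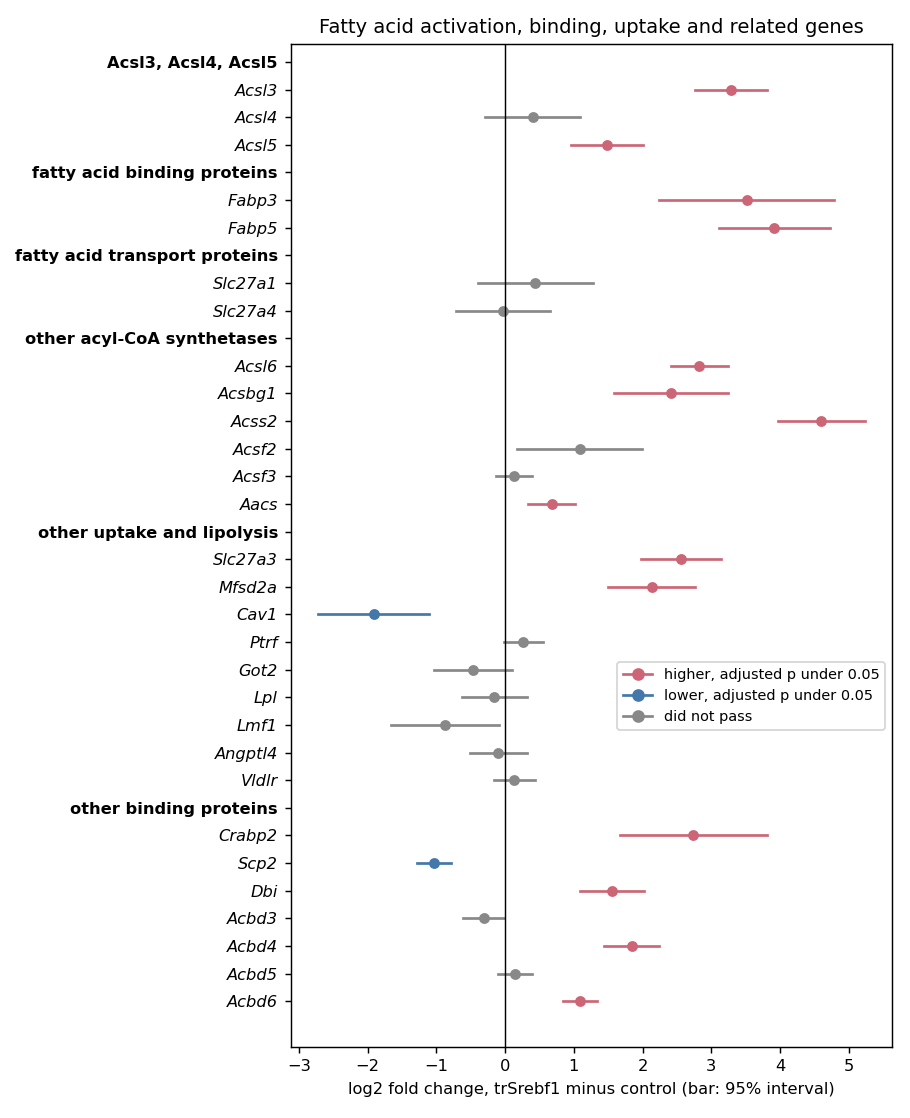
Log2 fold change (x axis, trSrebf1 minus control) with 95% interval for the 7 tested fatty acid genes and for genes of related lists that are reported here, grouped by role. Red marks genes called higher, blue genes called lower and grey genes that did not pass. The other synthetases have a median of 1.75, with Acss2 and Acsbg1 tested only through their trSrebf1 libraries. The uptake and carrier lists hold genes on both sides.

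Acyl-CoA thioesterases, which undo the activation step, had 13 of 15 symbols with a row and 8 tested. Of these 1 was called, against 30.2% of all tested genes, and the median log2 fold change was -0.01. Acot7, a cytosolic thioesterase of long-chain acyl-CoA, rose by 1.22 (SE 0.11, adjusted p = 2.53e-07) from 343 ± 36.4 to 801 ± 79.8 CPM. Them4 had a log2 fold change of -0.10 and Acot13 one of -0.32, neither past the threshold.

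PPAR and RXR genes had 7 of 8 symbols with a row and 4 tested. Of these 1 was called, against 30.2% of all tested genes. Ppard, a fatty acid sensor of the PPAR family, rose by 1.24 (SE 0.12, adjusted p = 3.26e-07) from 106 ± 15.3 to 251 ± 7.64 CPM. Rxra and Rxrb had log2 fold changes of 0.12 and -0.22, neither past the threshold. Pparg, the adipocyte receptor, had 1 tag in control and 0 in trSrebf1 libraries, and Ppara had 20 and 14 tags. Of 15 known PPAR targets outside the 10 genes, 14 had a row and 12 were tested, with 4 higher and 1 lower and a median of -0.07. Among all tested genes 17.2% were called higher and 13.0% lower. Fgf21 reached the level of the filter in 1 control and 3 trSrebf1 libraries and so was tested through its trSrebf1 libraries. The count of rises is therefore a description and is not compared with that share. Plin2, a lipid droplet coat protein gene, rose by 1.89 (SE 0.13) and the hormone gene Fgf21 by 1.93 (SE 0.39), and Acadvl fell by 1.06 (SE 0.29). Cpt1a, also called higher, had a log2 fold change of 0.87 (adjusted p = 0.0213), and its call depended on single libraries. The adjusted p was 0.0526 without control replicate 1 and 0.0931 without control replicate 3. It was 0.0529 when the first trSrebf1 library was left out (replicate 1) and 0.0675 when replicate 2 was. DESeq2 gave 0.0870 for Cpt1a and 0.0607 for Acadvl, and called 3 of the list. The end of Plin2 matches an annotated copy, and that of Acadvl overlaps Dvl2, so both are uncertain. Pdk4 had 10 tags in control and 13 in trSrebf1 libraries.

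The 3 genes nearest to Fabp5, the gene with the largest estimated rise of the 10, were sought among 10193 others. The measure was the root mean square difference of log2 CPM over the 6 libraries after each gene's mean was subtracted. An average of 2 counts was added to each library before the logarithm, which shrinks differences between genes with few control tags. Nearest were Epb4.1l5 (0.113), Ccnf (0.147) and H2-Q4 (0.169), with log2 fold changes of 3.58, 5.07 and 3.87. Ccnf averaged 0.173 CPM in control libraries, so its nearness does not mean an equal fold change. H2-Q4 belongs to a family of near-identical class I genes, and its tags are uncertain. None of the 10 genes was called lower, so no such neighbours are given for a fall.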

How the data were processed

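RNA of sorted donor fibroblasts was read by 3'SAGE-seq in 3 control and 3 trSrebf1 libraries. The authors deposited a table for each library that lists gene symbols with whole-number counts, per the file headers, with no symbol repeated and at least 1 count for each symbol in at least 1 library. A symbol without a row may have had no tag or no gene model. Bowtie2 2.2.5 and mm10 are named, with no role, per the submitters' processing notes, and how tags were assigned to genes (tool, annotation, strand) is not given in the sources used here. Groups follow the sample titles.

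Counts were fitted with edgeR 4.0.16 in R 4.3.3 (TMM factors, filterByExpr with a minimum count of 10 and a minimum total of 15, robust glmQLFit and glmQLFTest, group as the only term), and a gene was called at an adjusted p under 0.05. The fit was tested on simulated data. SE is the size of the log2 fold change divided by the square root of F, and 95% intervals use the moderated degrees of freedom. CPM use TMM-scaled library sizes. Alternatives were other scalings and filters, DESeq2 1.42.0, limma-voom (limma 3.58.1), the replicate number as a block, Ctsd left out and each library left out. Bounds and intervals of counts cover counting error only, since no molecular identifiers are recorded. Within groups, the chi-square statistic between 2 libraries was 4.52 to 8.13 per degree of freedom, above the sampling value near 1, so none was taken as a copy of another.

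The 10 genes, the lists and the tests were chosen with earlier results of these data known. Named are all 10 genes, Srebf1, up to 4 genes with the smallest p of each related list, any called gene of a list with 5 or fewer tested, the 2 highest markers of each cell type and those without a row, and the 3 genes nearest to the largest rise and to the largest fall. Overlapping genes and genes given by their counts alone were named after their values were seen, as were Acsf2, Acsf3, Ptrf, Lpl, Cpt1a and Esam. Values of some single genes that the lists count are not reported here. Coordinates are from GENCODE M21 (GRCm38), and near-identical ends were sought with blastn among its transcripts.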

Additional observations from a re-analysis of the deposited data

How the results depend on the processing

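The calls of Acsl3, Acsl5, Fabp3 and Fabp5 and the absence of a call for Acsl4, Slc27a1 and Slc27a4 held under each of the 15 alternatives that tested them. Fabp3 was not tested under the filter of 5 CPM in 3 libraries, which left 3 of the 10 genes higher in place of 4. With single libraries left out, the log2 fold change ranged from 3.11 to 3.43 for Acsl3, 1.32 to 1.59 for Acsl5, 2.99 to 4.20 for Fabp3, 3.60 to 4.33 for Fabp5, 0.13 to 0.61 for Acsl4, 0.07 to 0.98 for Slc27a1 and -0.39 to 0.15 for Slc27a4. The sign of Slc27a4 turned without control replicate 3 (0.10), trSrebf1 replicate 1 (0.15) or trSrebf1 replicate 2 (0.12). Signs of genes not called also turned, with ranges of -0.2526 to 0.035 for Them4, -0.4258 to 0.0369 for Rxrb, -0.0742 to 0.2863 for Zcchc17, -0.4966 to 0.7488 for Sftpb and -0.9816 to 0.0511 for Sftpc. The library left out was trSrebf1 replicate 2 for Them4 and Sftpb, trSrebf1 replicate 1 for Rxrb, control replicate 1 for Zcchc17 and control replicate 3 for Sftpc. Over all genes 1535 to 1734 were higher and 1060 to 1230 lower with 1 library left out, against 1755 and 1328 with all 6. Upper-quartile factors gave 1552 and 1649, total counts 1565 and 1547, and DESeq2 1572 and 998. DESeq2 called 3 of the PPAR targets where edgeR called 5. Cpt1a and Acadvl lost their calls, with log2 fold changes of 0.88 and -1.06 by DESeq2 and 0.87 and -1.06 by edgeR. Their SEs were 0.373 and 0.420 by DESeq2 against 0.271 and 0.293 by edgeR, and why the SEs differ was not tested. The difference in the share of Acsl5 was -7.52 percentage points with Acsl1 counted in the sum. With Acsl1 and Acsl6 counted it was 11.25 points for Acsl3 and -12.41 for Acsl4. These sums have other denominators. With no filter on low counts, edgeR gave log2 fold changes of -1.02 for Acsl1 (adjusted p = 0.2995) and -2.06 for Fabp4 (0.479, on 5 and 1 tags). With the replicate number as a block, the 4 genes called higher numbered 4 again, and no called gene of the 10 was lost. Same-numbered libraries did not deviate together (correlations of 0.00525, -0.112 and -0.0538), so the numbers were not taken to pair the libraries.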
